A study of Mus musculus with 47 samples.

Results

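The immunoglobulin genes encode the heavy and light chains of the B cell receptor and of secreted antibody. On the expression arrays used here they were represented by every probe set whose gene symbol field names a heavy chain (Igh), kappa (Igk) or lambda (Igl) variable (V), joining (J) or constant gene. The letters of that rule matched 56 of 45101 probe sets. Of these, 4 belong to Ighmbp2, a DNA helicase that only shares the letters Ighm, and they were set apart, which left 52. The heavy chain has 23 of them, kappa 25 and lambda 4. A constant region is named in 26 (Ighm for mu, Ighg3 for gamma-3, Igha for alpha, Igkc for kappa and Iglc1 for lambda-1), and the other 26 name V genes only. No probe set of the rule names Ighd, Ighe, Ighg1, Ighg2 or Ighj, so those genes were not analysed here.

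Gene expression had been measured in B cell lymphomas of mice that carry Myc under the immunoglobulin heavy chain enhancer (Eµ-myc), which is active in the B lineage. All cells were transduced with a retrovirus for the antiapoptotic gene Bcl2 (MSCVpuro), selected with puromycin for 48 h and kept on NIH 3T3 fibroblasts irradiated with 20 Gy. The 47 arrays come from 22 cultures. The study set untreated (native) cells beside cells given 0.05 µg/ml Adriamycin (ADR, doxorubicin) for 5 days, and the labels name cells as senescent or non-senescent. Wild-type Suv39h1 (WT) lymphomas gave 14 native and 14 ADR arrays, and lymphomas labelled Suv39h1- gave 5 and 5. Suv39h1 is a histone H3 lysine 9 methyltransferase. A further 3 cultures, of Suv39h1- cells carrying Suv39h1ER, a form of the enzyme that 4-hydroxytamoxifen (4OHT) switches on, gave 3 native arrays, 3 with ADR and 3 with ADR and 4OHT together.

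Each B cell joins 1 heavy chain V gene to D and J segments and 1 light chain V gene to a J segment, and the cell's descendants keep that choice. The heavy chain starts as mu and can be switched to gamma, alpha or epsilon, while a light chain is either kappa or lambda. The V genes that a lymphoma expresses and its light chain type can therefore act as a label of the clone. Heavy chain class can differ within a clone. Feeder cells and macrophages do not rearrange these genes.

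The signal is a log2 level per probe set. A level of 1 probe set can be compared between arrays, but not with the level of another probe set. Probe sets that name the same genes share sequence and are not replicates: 13 of the 52 name several genes, and 21 carry a suffix that marks probes shared between transcripts. Neither probe nor antibody gene sequences were in the sources used here, so none are printed.

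The B cell markers measured gave signal on nearly every array. All 9 (among them Cd79a, Cd79b, Cd22, Pax5 and Ptprc) were above the array median on at least 46 of the 47 arrays. That bar does not tell cell types apart. The T cell genes Cd4 and Cd2 and the macrophage genes Csf1r, Cd68 and Lyz2 passed it on all 47. The mean log2 level of the 9 B cell genes ran from 8.67 to 9.43 in the native WT arrays. Macrophage genes, among them Ms4a7 and Csf1r, and fibroblast genes, among them Col1a2 and Fn1, were measured too. They are given below as counts, medians and means of each list.

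Immunoglobulin signal set the lymphomas apart more than most genes did. Over the 22 native arrays, the median SD of the 52 probe sets was 0.61, against 0.24 over all 45101. An SD of at least 1 log2 unit was found for 16 of the 52 (30.8%) and for 1.58% of all probe sets. The V gene probe sets with the widest spread were Iglv1 1430523_s_at (SD 2.29), Igkv9-120 1460423_x_at (1.98) and Iglv1 1447918_x_at (1.45). Next came 1451965_at (1.43), which names Igkv6-14, Igkv6-23 and Igkv8-19, then Iglv1 1427292_at (1.42) and Ighv14-2 1455530_at (1.31). At the other end, 15 of the 52 spanned less than 1 log2 unit over the native arrays, and 16 were at or below the array median on every array.

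The arrays of some cultures did not carry 1 immunoglobulin pattern, and this touches the results that follow. Likeness was measured as Pearson's r over the 52 probe sets, each taken as its difference from the median of the native arrays. It is a description, since the arrays share normalization. The most alike array came from the same culture for 20 of 47 arrays over all 52 probe sets and for 19 of 47 over the V gene probe sets alone. The median r was 0.68 for the 28 pairs of arrays from the same culture and -0.0042 for pairs from different cultures. In WT the lowest r between a native array and its ADR partner was 0.20, for lymphoma 3594, and in Suv39h1- it was 0.39, for lymphoma 9250. Over the V gene probe sets alone WT 7050 gave -0.36. By genotype the most alike array over all 52 was of the same culture for 9 of 28 WT, 7 of 10 Suv39h1- and 4 of 9 Suv39h1ER arrays.

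The lowest r within a culture over all 52 probe sets were in the Suv39h1ER cultures. The ADR array of SuvER-4936 gave r of -0.80 with its own native array and -0.77 with its own ADR and 4OHT array. Its most alike array was that of WT lymphoma 403 under ADR (r = 0.77). The native array of SuvER-4936 was most like the ADR and 4OHT array of SuvER-5043 (r = 0.97). The ADR and 4OHT array of SuvER-4146 had r of -0.03 with its native and -0.0086 with its ADR array, while those latter arrays gave 0.87 with each other. The 3 arrays of SuvER-5043 had r of 0.89 to 0.97 with each other. The cultures that share a number were alike in part only. WT 5043 native against SuvER-5043 native gave 0.07. Suv39h1- 4936 native gave -0.23 with the native, 0.60 with the ADR and -0.17 with the ADR and 4OHT array of SuvER-4936. All Suv39h1ER values are therefore given per culture, as the cultures labelled so.

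WT lymphomas 2949, 5043, 5766 and 6054 were as alike as arrays of 1 culture. Pairs from different lymphomas among these 4 ran from 0.66 to 0.96 (24 pairs), against 0.78 to 0.90 within each. The V gene probe sets alone did not group 5043 in this way. Its native and ADR arrays were then most like those of Suv39h1- 1032 (r = 0.76 native, 0.64 ADR), and gave 0.49 with each other. Each array of 2949, 5766 and 6054 was still most like an array of another of these lymphomas. These 4 lymphomas share high signal of several Ighm probe sets, described below. All are counted as 4 lymphomas, as labelled, and their average as 1 lymphoma was an alternative. Suv39h1- lymphomas 7890 and 9250 were averaged in the same alternative, yet their immunoglobulin signals ran from -0.0019 to 0.63.

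**Figure D1:**
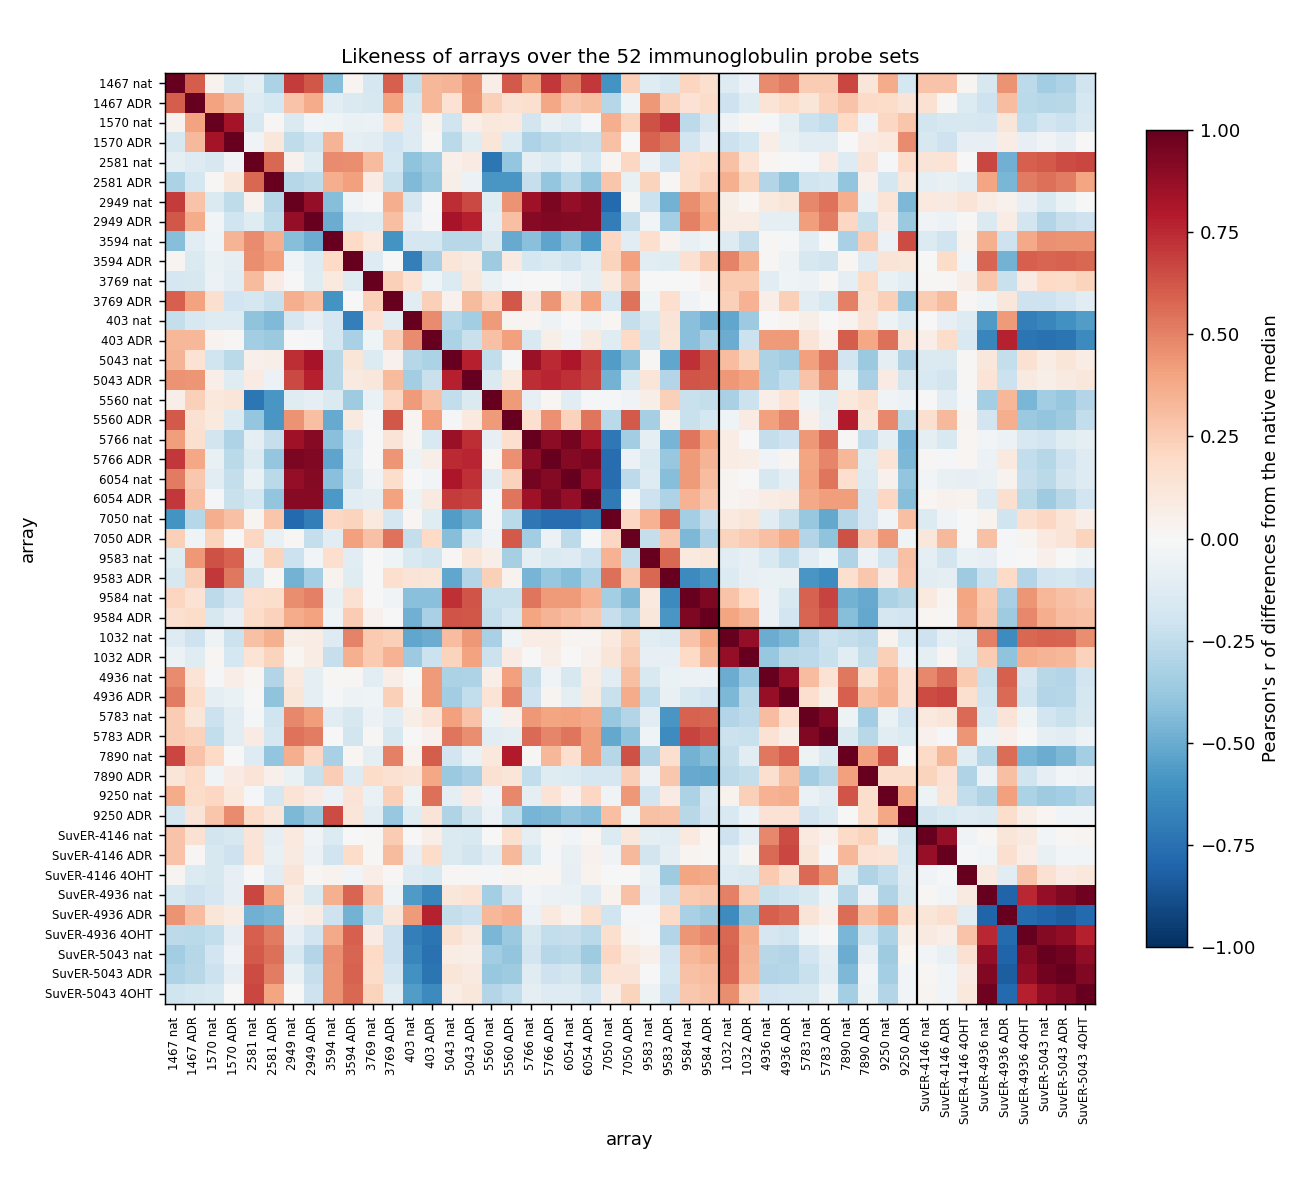
Pearson's r between all 47 arrays over the 52 immunoglobulin probe sets, each as its log2 difference from the native median. Rows and columns are arrays ordered by genotype (black lines), and red marks arrays that were alike. WT 2949, 5043, 5766 and 6054 form a red group, and the ADR array of SuvER-4936 is blue against the other arrays of SuvER-4936 and SuvER-5043.

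Mu heavy chain signal was high in every culture. Ighm 1427351_s_at was far above the array median on all 47 arrays. In native WT lymphomas it ran from 12.58 (2581) through a median of 13.22 to 14.08 (1570). In WT under ADR the range was 12.13 (403) to 14.12 (1570). The 5 native Suv39h1- lymphomas had 13.71 (5783), 12.59 (7890), 12.07 (9250), 12.16 (1032) and 13.56 (4936). Lymphoma 1032 under ADR, at 10.67, was the lowest of all arrays, and the other 21 cultures stayed at or above 12.07. A second Ighm probe set, 1427329_a_at, was also lowest in that array: 9.21 for 1032 under ADR and 11.27 to 13.5 in the other 21 cultures. The pair had r = 0.92 over the 47 arrays.

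Another 4 probe sets carry the symbol Ighm but followed a different pattern. Probe sets 1425247_a_at, 1425324_x_at, 1427756_x_at and 1427870_x_at were high in WT 1467, 2949, 5043, 5766, 6054 and 9584 and in Suv39h1- 5783. On the 14 arrays of these 7 lymphomas 1425247_a_at ran from 6.86 to 9.92, and on the other 33 arrays from 3.88 to 5.88, with no overlap. The same split held for 1425324_x_at (5.81 to 8.65 against 2.42 to 4.50), 1427756_x_at (5.32 to 8.16 against 2.41 to 4.45) and 1427870_x_at (7.98 to 10.70 against 5.59 to 7.31). The 7 were picked from these values, so no test is given. Among the 4 probe sets r was 0.98 to 0.99, but with 1427351_s_at and 1427329_a_at it was 0.20 to 0.28. What separates them on the transcript is not given in the annotation used here.

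A different set of lymphomas was high for Ighm 1425385_a_at. Native values reached 7.38 in 9584, 7.28 in 1032, 7.20 in 5560, 6.78 in 1467 and 6.26 in 1570, while Suv39h1- 4936 was lowest at 3.45. Under ADR the order changed. WT 3769 went from 5.47 to 7.66 and 5043 from 5.20 to 7.15, while 1570 fell to 4.60 and 5560 to 5.78. The mean WT change of 0.48, higher in 11 of 14 lymphomas, was not called. It was called by limma without 1570 (0.65, adjusted p = 0.0188) or without 5560 (0.63, adjusted p = 0.0303). On the native arrays only 1467 and 9584 were high by both this probe set and the 4 above. The remaining Ighm probe set with a wide range, 1452535_at, stood out in Suv39h1- 4936 (6.98 native, 6.56 ADR), in WT 9583 under ADR (6.82) and in the Suv39h1ER cultures described below.

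Igha, the constant region of IgA, was high in 2 cultures. On the arrays of 20 cultures 1421653_a_at stayed between 4.32 and 5.45. Suv39h1- 4936 had 5.69 native and 7.49 under ADR. SuvER-4146 had 8.18 native, 8.29 under ADR and 4.50 under ADR and 4OHT, so its last array fell among the low ones. All 3 Igha probe sets showed this: SuvER-4146 had 8.01, 8.76 and 4.72 for 1425763_x_at and 7.91, 8.79 and 4.09 for 1429381_x_at, in the same order of treatments. Their agreement is not replication, because all 3 read the same gene.

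Ighg3 is the constant region of the IgG3 class. For 1427503_at, WT 1467 had 7.17 native and 8.27 under ADR, WT 1570 had 7.95 and 7.42, and WT 2581 had 5.47 and 7.76. The arrays of the other 19 cultures ran from 4.42 to 6.91. Thus 2581 lay among the low lymphomas before treatment and among the high ones after it. A second probe set, 1447998_at, was likewise highest in 1467 and 1570 under ADR (5.41 and 5.41). The other Ighg3 probe sets, 1426198_at and 1426199_x_at, stayed between 1.98 and 3.14 on all arrays.

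**Figure D2:**
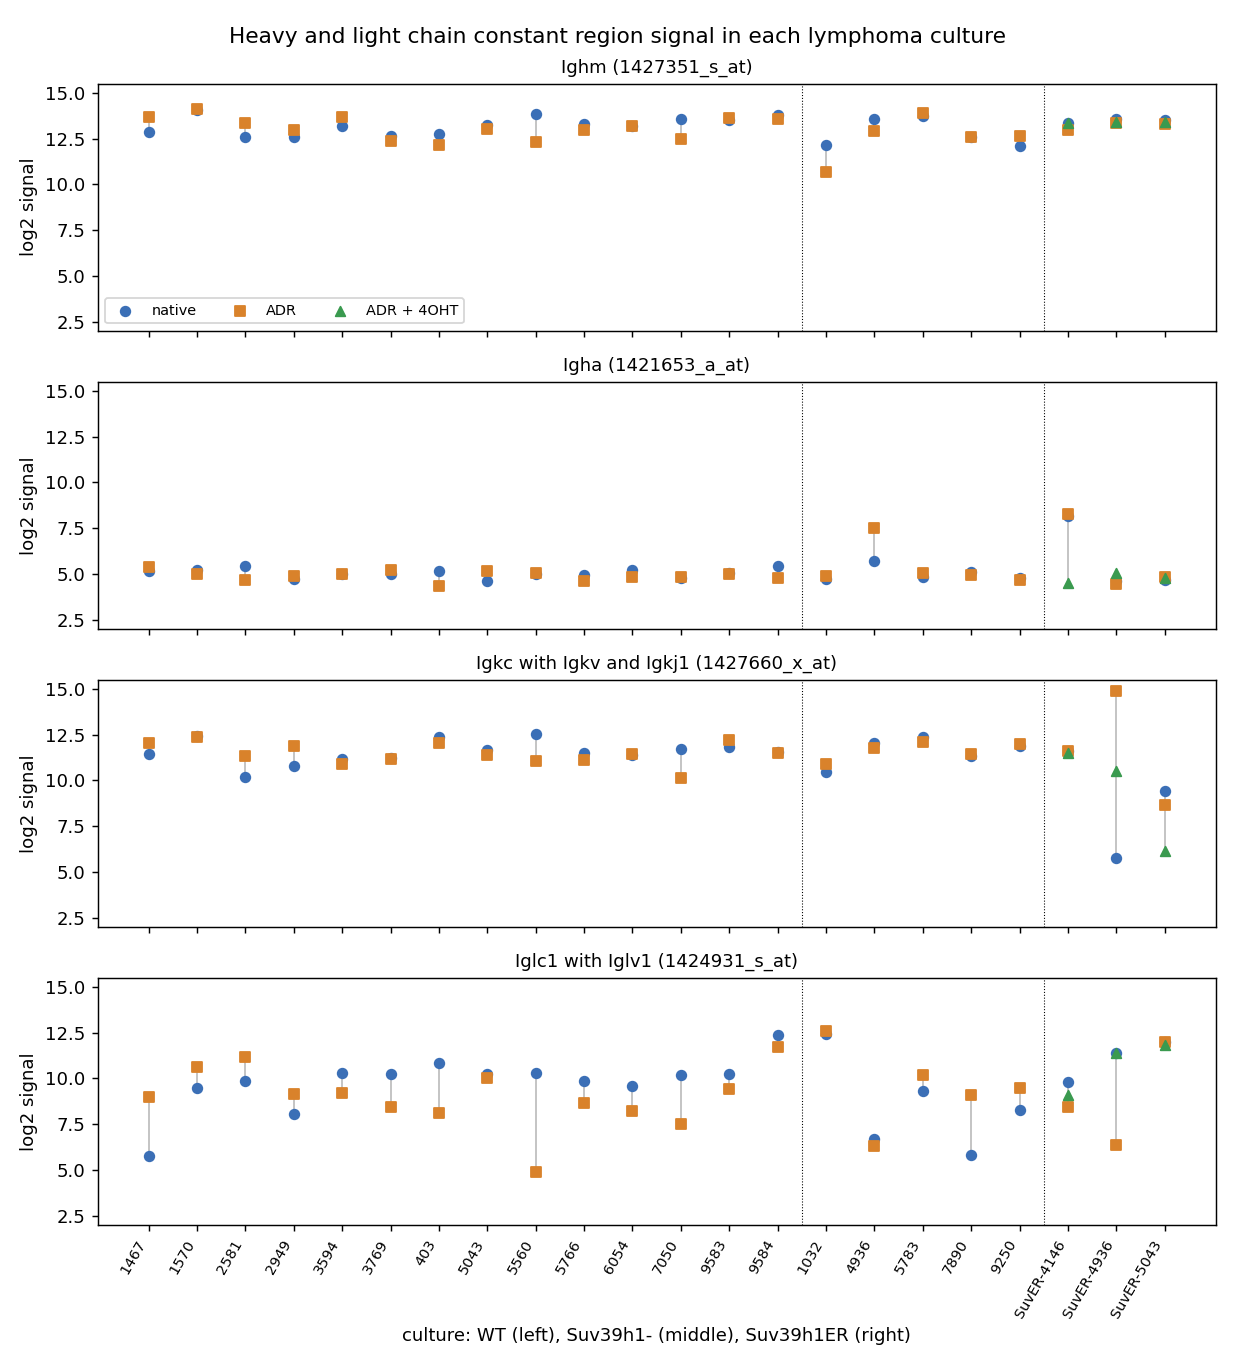
Log2 signal of a mu, an alpha, a kappa and a lambda constant region probe set (panels) in each of the 22 cultures (x axis), by treatment (colour and shape), with a grey line joining the arrays of a culture. Ighm is high throughout, Igha stands out in 4936 and SuvER-4146, and the kappa and lambda signals of SuvER-4936 move in opposite directions between native and ADR.

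Kappa light chain signal was high on every array of 20 cultures and varied more in SuvER-4936 and SuvER-5043. The 3 Igkc probe sets also name Igkv6-23, Igkv4-53, Igkv8-30 and Igkj1, and 1427660_x_at stands for them here (r with the other pair 0.99 and 0.96). Over the 41 arrays of 20 cultures it ran from 10.11 (WT 7050 under ADR) to 12.53 (WT 5560 native). The median native WT level was 11.51. SuvER-4936 had 5.78 native, 14.89 under ADR and 10.52 under ADR and 4OHT. SuvER-5043 had 9.40, 8.63 and 6.13. Igkc 1427455_x_at had its highest level, 14.997, on the same ADR array of SuvER-4936.

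Lambda signal differed widely between lymphomas. Iglc1 1424931_s_at, which also names Iglv1, ran from 5.74 (WT 1467) to 12.44 (Suv39h1- 1032) in the native arrays of WT and Suv39h1- lymphomas. It was highest in WT 9584 (12.37 native, 11.72 ADR), Suv39h1- 1032 (12.44 and 12.58) and SuvER-5043 (11.99 native, 11.99 ADR, 11.81 ADR and 4OHT). SuvER-4936 had 11.36, 6.35 and 11.39 in that order of treatments. On its ADR array the lambda signal was thus low where the kappa signal was at its highest.

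High lambda did not exclude high kappa signal in these arrays. WT 9584 native had 11.54 for Igkc 1427660_x_at, within the range of the other WT lymphomas. Suv39h1- 1032 native had 10.45, the lowest of the 5. Over the 38 WT and Suv39h1- arrays r between Igkc 1427660_x_at and Iglc1 1424931_s_at was 0.04. In bulk RNA, several clones and several chains in 1 clone cannot be told apart, nor can fewer B cells and less immunoglobulin RNA per cell.

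Among the lambda V probe sets, Iglv1 1430523_s_at followed Iglc1 most closely (r = 0.84 over 47 arrays). Its native extremes were 4.71 in WT 403 and 11.92 in WT 9584. The other Iglv1 probe sets did not follow it in every lymphoma. WT 403 native had the highest level of 1427292_at (10.46), and Suv39h1- 1032, with 11.67 for 1430523_s_at, had 6.08 for 1427292_at.

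Some V gene probe sets stood out in 1 lymphoma and others in several. A V probe set was counted as standing out where its level lay at least 3 log2 units above its own median over the 22 native arrays. This happened 10 times in 7 native cultures, over 6 probe sets, and 9 of the 10 stood out in the ADR array of the same culture too. The exception was Igkv9-120 1460423_x_at in Suv39h1- 4936, at 6.55 native and 5.44 under ADR. Under ADR there were 15 such cases, 6 of them not seen in the native partner.

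Igkv4 genes marked WT 1570. Igkv4-68 1427857_x_at had 7.22 native and 7.34 under ADR there, against a native median of 3.32. The probe set for Igkv4-55 and Igkv4-68, 1426200_at, had 7.71 and 7.59 against a median of 3.94. Igkv4-72 1426201_at (6.81 and 6.31) and Igkv6-14 1427860_at (5.40 and 6.86) were highest in that lymphoma as well. WT 9583 was the only other culture in which 1427857_x_at passed 4.10 (4.35 native, 5.63 ADR).

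Of the 3 Igkv9-120 probe sets, only 1460423_x_at was high in several lymphomas of both genotypes. By 1460423_x_at, Suv39h1- 5783 had 9.72 native and 8.77 under ADR, and WT 9584 had 8.95 and 7.46. Suv39h1- 4936 followed with 6.55 and 5.44, and SuvER-4146 with 5.03, 5.75 and 6.40. The arrays of the other 18 cultures ran from 1.09 to 4.19. A second Igkv9-120 probe set, 1452536_s_at, was high in 5783 alone (6.57 native, 6.20 ADR), with 2.97 to 3.84 in the other 21 cultures. The third, 1427750_at, stayed between 2.42 and 3.08 on all arrays. In 9584, 4936 and SuvER-4146 the signal thus rests on 1460423_x_at, whose suffix marks shared probes. Lymphomas 9584 and 5783 also belonged to the 7 with high 1425247_a_at.

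A single WT lymphoma, 5560, was marked by 1451965_at, which names Igkv6-14, Igkv6-23 and Igkv8-19. It had 9.99 native and 7.47 under ADR, against at most 4.99 on the other 45 arrays. Probe sets 1427576_at and 1427577_x_at name the same genes but did not single out 5560. Both were highest in WT 1570 (6.01 native and 5.85 ADR, 5.72 and 5.84), with 5.38 and 5.19 in 5560 native. Igkv14-111 1451951_at was high in Suv39h1- 4936 (6.99 and 7.14). It was also high on the ADR array of SuvER-4936 (7.43), but not on its native (3.34) or ADR and 4OHT array (3.48). SuvER-4146 had 5.51 native, 5.47 under ADR and 2.71 under ADR and 4OHT for this gene, which matches the step seen for Igha. Among WT lymphomas, 1467 had 5.82 native and 4.23 under ADR, and 9584 had 5.47 and 4.17. The arrays of the other 17 cultures ran from 3.36 to 4.52.

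Ighv14-2 1455530_at, the only probe set for a heavy chain V gene alone, was highest in WT 1570 under ADR (10.59; native 7.86). WT 1467 had 6.60 native and 9.34 under ADR. Suv39h1- 1032 was low on both its arrays (3.38 and 3.45), below all 45 others. Igkv6-20 1451962_at reached 6.08 only in WT 2581 under ADR, with 4.02 in its native partner.

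**Figure D3:**
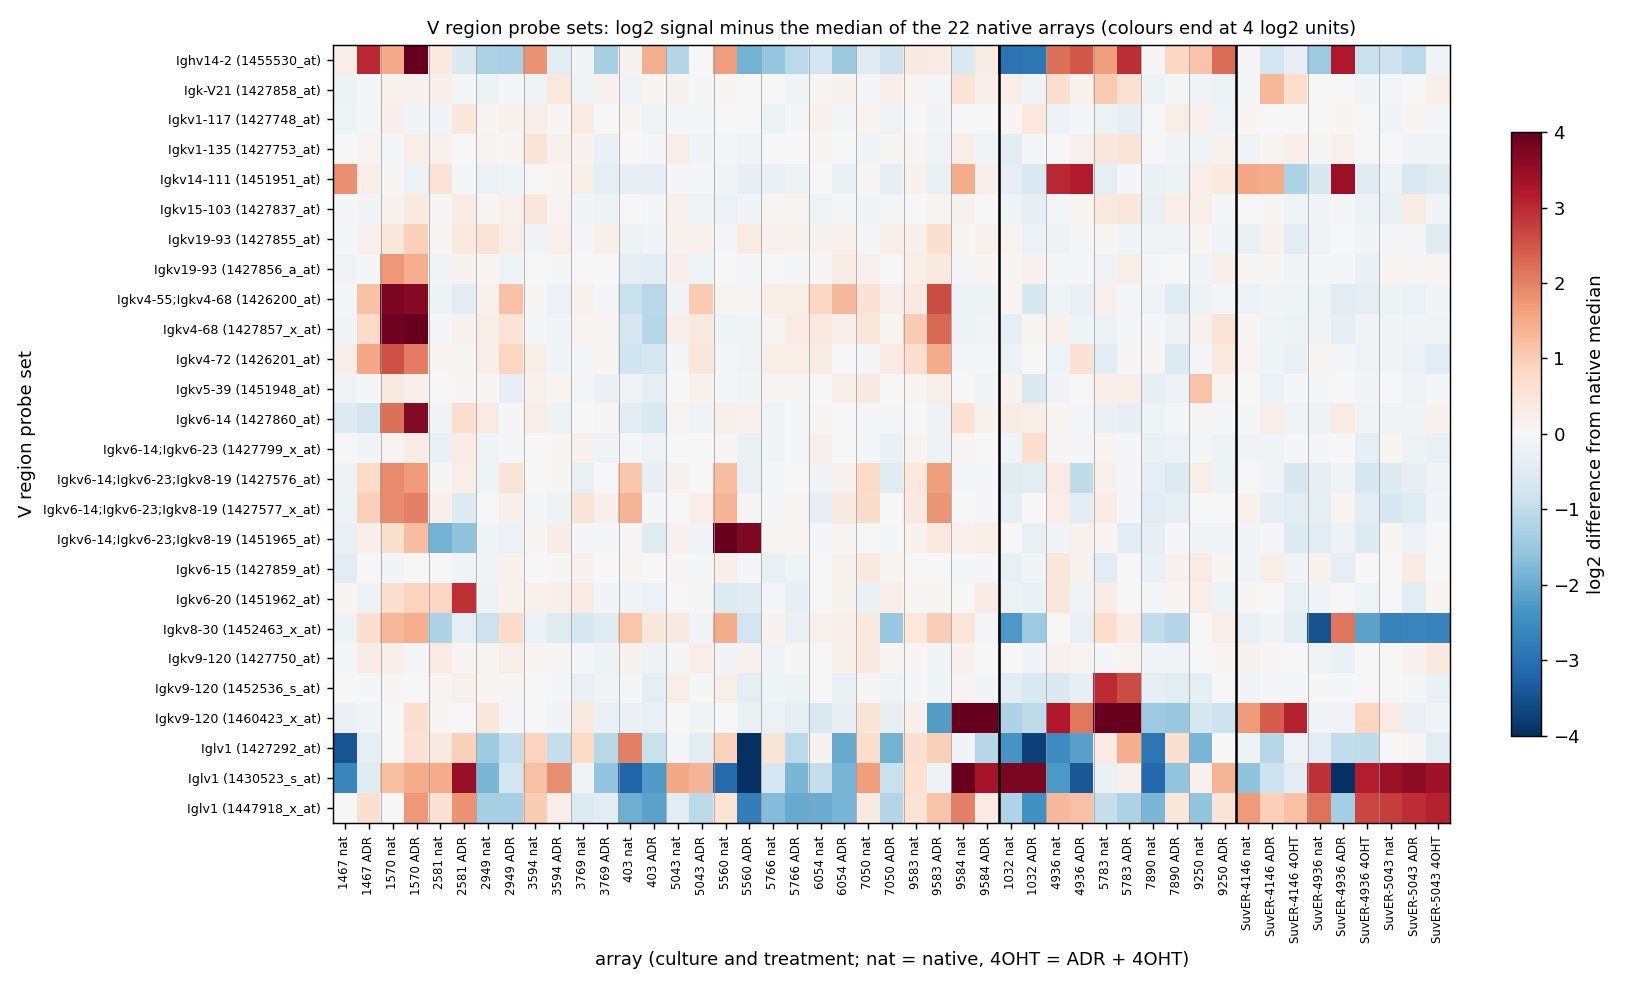
Log2 signal of the 26 V gene probe sets (rows) on the 47 arrays (columns, ordered by genotype and culture), as the difference from the median of the 22 native arrays. Red blocks that span the native and ADR columns mark V gene probe sets high in 1 lymphoma, such as 1451965_at in 5560, or in several, such as Igkv9-120 1460423_x_at in 9584 and 5783.

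Few immunoglobulin probe sets were called as changed by Adriamycin across the WT lymphomas. Of the 52, 1 rose and 1 fell (limma, Benjamini-Hochberg adjusted p under 0.05, culture as a block, 14 pairs), against 23.5% of all probe sets called in this comparison. The median change of the 52 was -0.05, beside -0.01 over all probe sets. The median standard error was 0.16 for the 52 and 0.087 for all. At an unadjusted p under 0.05 there were 9 of 52 (17.3%), against 32.2% of all. Few calls did not mean little change in single lymphomas. The SD of the change over the 14 lymphomas was at least 1 log2 unit for 8 of the 52 (15.4%) and for 3.32% of all.

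Ighm 1425247_a_at fell by 0.44 ± 0.16 (SE, adjusted p = 0.0489 by limma), lower in 10 of 14 lymphomas. Its mean was 6.59 in the native and 6.15 in the ADR arrays. The lowest changes were -2.13 in 9584 (9.92 to 7.79) and -1.82 in 9583 (5.70 to 3.88), and the median change was -0.29. The call was lost when WT 1467, 2581, 403, 5043, 5560, 5766, 6054, 9583 or 9584 was left out, with changes between -0.31 (without 9584) and -0.46. It was also lost with the alike lymphomas counted once (-0.51, adjusted p = 0.0587) and with only the WT arrays in the fit (adjusted p = 0.0848).

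Igkv19-93 1427855_at rose by 0.20 ± 0.06 (SE, adjusted p = 0.0158 by limma), higher in 12 of 14 lymphomas. Its levels were 4.54 to 5.27 (median 4.79) native and 4.64 to 5.71 (median 4.96) under ADR, so the groups overlapped. A second probe set of the same gene, 1427856_a_at, was not called.

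The constant region probe sets differed in direction from lymphoma to lymphoma. Iglc1 1424931_s_at moved by -5.42 in 5560 (10.32 to 4.89) and by 3.23 in 1467 (5.74 to 8.97). It was lower by at least 1 log2 unit in 7 WT lymphomas and higher by at least 1 in 4, and the mean of -0.79 ± 0.50 (SE, adjusted p = 0.309) was not called. The SD of its change over the 14 lymphomas, 2.13, was the largest of the 52 probe sets. Over all probe sets the median SD of that change was 0.30.

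Igkc 1427660_x_at changed by -0.08 ± 0.47 (SE, 95% interval -1.06 to 0.90, adjusted p = 0.941) in WT. This SE pools the spread of all groups, SuvER-4936 included, and the SD over the 14 WT lymphomas alone was 0.80. With only the WT arrays in the fit it was not called either (adjusted p = 0.826). Single lymphomas ran from -1.60 (7050) to 1.16 (2581). Ighm 1427351_s_at changed by -0.11 ± 0.16 (SE, interval -0.44 to 0.22), lower in 7 and higher in 7 lymphomas, with -1.49 in 5560 and 0.85 in 1467 as the extremes. For Ighm 1427351_s_at and Iglc1 1424931_s_at, lymphoma 5560 thus had the lowest change and 1467 the highest. Ighm 1427329_a_at and Iglv1 1427292_at had the same extremes. Others did not: Ighm 1425247_a_at was lowest in 9584 and Iglv1 1430523_s_at in 7050. For Ighg3 1427503_at the mean change was 0.29 ± 0.21 (SE, adjusted p = 0.377), with 2.29 in 2581. Igha 1421653_a_at changed by -0.14 ± 0.24 (SE, adjusted p = 0.782).

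Markers of other cells moved in these WT cultures. Of 12 fibroblast genes 11 rose under ADR in WT (median change 2.12), and of 10 macrophage genes 7 rose (median 1.83). Of 9 B cell genes 3 fell (median -0.28). The mean fibroblast level was 4.59 to 5.87 on the native and 5.50 to 9.61 on the ADR arrays. It changed by 4.13 in 5560, by 4.43 in 403 and by -0.13 in 1467. The mean B cell level changed by -1.10, -0.75 and 0.24 in the same lymphomas, beside Iglc1 changes of -5.42, -2.74 and 3.23. Other lymphomas did not line up in this way. In 2581 the fibroblast and macrophage levels changed by 3.06 and 3.48 and Iglc1 by 1.35, and in 2949 the B cell level changed by -0.78 and Iglc1 by 1.09. Their part in the immunoglobulin changes was not tested. T cell genes did not move with treatment by this test (0 of 6 called).

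In Suv39h1- lymphomas no immunoglobulin probe set was called under ADR (limma, 5 pairs), and 0.00665% of all probe sets were. At an unadjusted p under 0.05 there were 3 of 52 (5.77%), against 11.4% of all. The median change of the 52 was 0.04, and that of all probe sets -0.05. Ighm 1451949_at was lower in 5 of 5 lymphomas, with a mean change of -0.51 ± 0.12 (SE, adjusted p = 0.0899). Its native levels were 4.21 (5783), 3.68 (7890), 3.87 (9250), 3.99 (1032) and 3.94 (4936), and its ADR levels 3.72, 3.44, 3.37, 3.13 and 3.45. It was dim throughout.

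The lymphomas of this genotype also differed among themselves. Iglc1 1424931_s_at went from 5.83 to 9.08 in 7890, from 8.27 to 9.46 in 9250 and from 9.32 to 10.20 in 5783. It stayed at 12.44 and 12.58 in 1032 and went from 6.71 to 6.29 in 4936. The mean change, 1.01 ± 0.84 (SE, adjusted p = 0.698), was within that spread. Ighm 1427351_s_at changed by -1.49 in 1032 and by 0.58 in 9250. Lymphoma 1032 also had the lowest mean B cell marker level among the native and ADR arrays of this genotype (7.97 and 7.35), and this was not tested as a part of its low Ighm.

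**Figure D4:**
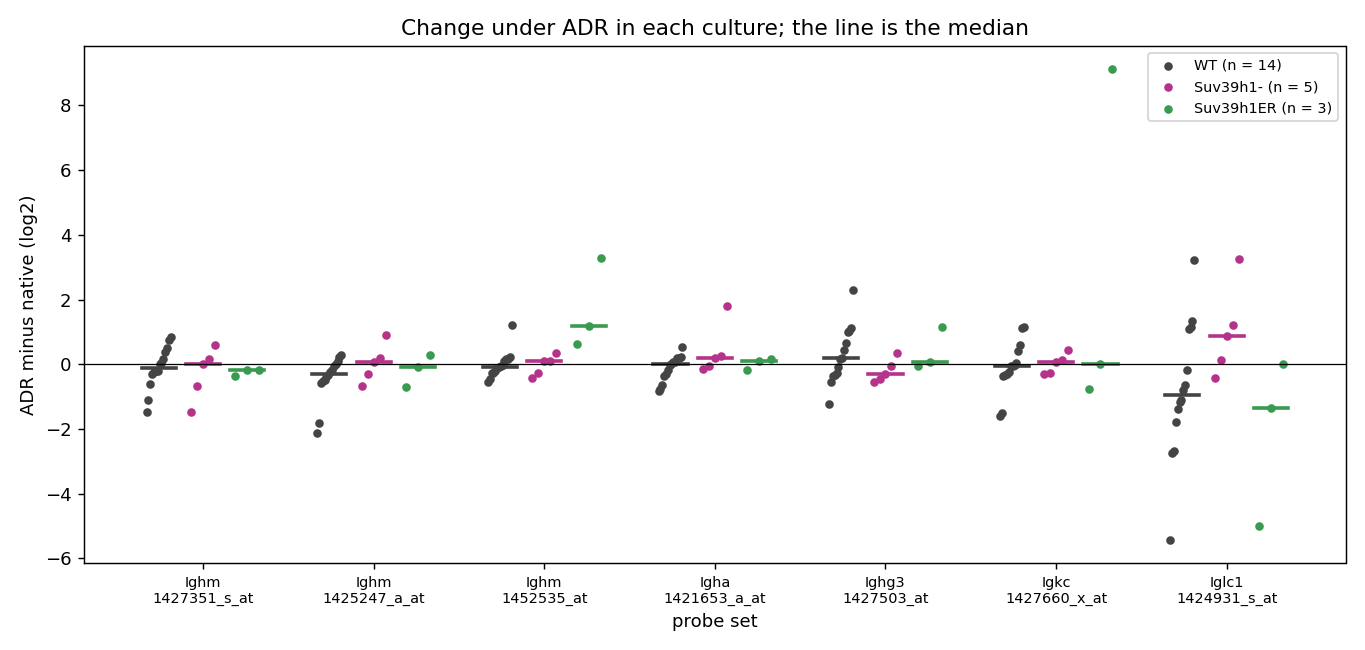
Change in log2 signal between the ADR and the native array of each culture (points) for 7 constant region probe sets (x axis), by genotype (colour), with the median as a line. Most medians lie near 0, Iglc1 spreads from -5.42 to 3.25 in WT and Suv39h1- lymphomas, and the Igkc point above 9 is SuvER-4936.

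The responses of the genotypes to ADR were compared directly, as the WT change minus the Suv39h1- change. None of the 52 probe sets was called (limma), and 0.0665% of all probe sets were. At an unadjusted p under 0.05 there were 6 of 52 (11.5%), against 16.2% of all. The largest lambda differences were -2.13 ± 0.87 (SE, adjusted p = 0.228) for Iglv1 1427292_at and -1.80 ± 0.98 (SE, interval -3.82 to 0.22, adjusted p = 0.366) for Iglc1 1424931_s_at. For Igkc 1427660_x_at the difference was -0.09, with an interval from -2.0 to 1.81, and for Ighm 1427351_s_at 0.17, with an interval from -0.46 to 0.81.

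Before treatment, of the 52 probe sets none was called between native WT and native Suv39h1- lymphomas (limma, 14 against 5), with 2.19% of all probe sets called. At an unadjusted p under 0.05 there were 2 of 52 (3.85%), against 11.9% of all. The median standard error was 0.28 for the 52 and 0.12 for all, and the median absolute difference 0.21 and 0.11. Ighm 1427329_a_at was 0.89 ± 0.30 (SE) higher in WT (adjusted p = 0.161). WT levels ran from 12.04 to 13.5 and Suv39h1- levels were 13.00, 11.61, 11.27, 10.77 and 12.59, so they overlapped. Iglv1 1427292_at was 1.99 ± 0.62 (SE) higher in WT (adjusted p = 0.124). Without WT 1467 there was 1 call, and without Suv39h1- 5783 there were 3.

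Under ADR, 2 probe sets were higher in WT than in Suv39h1- lymphomas (limma), beside 9.75% of all probe sets called. Igkv19-93 1427855_at differed by 0.43 ± 0.12 (SE, adjusted p = 0.0269). Ighm 1451949_at differed by 0.36 ± 0.11 (SE, adjusted p = 0.0491), with WT levels of 3.53 to 4.25 and the Suv39h1- levels given above. Neither call was made with arrays centred on their medians, with quantile normalization or with the alike lymphomas counted once. No call was left without Suv39h1- 7890 or 9250. With dim probe sets left out 1 call remained, and 1 also without WT 1570, 2949, 3594, 3769, 5043, 5766, 7050, 9583 or 9584 or Suv39h1- 1032 or 4936. For Iglc1 1424931_s_at the difference was -0.51 ± 0.89 (SE, adjusted p = 0.754).

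In the Suv39h1ER cultures 1 immunoglobulin probe set rose under ADR (limma, 3 cultures), with 0.384% of all probe sets called. Ighm 1452535_at went from 5.82 to 7.0 in SuvER-4146, from 4.74 to 8.02 in SuvER-4936 and from 5.20 to 5.83 in SuvER-5043. The mean change was 1.70 ± 0.33 (SE, adjusted p = 0.0184). The highest native level (5.82) lay next to the lowest ADR level (5.83). Without SuvER-4936, whose arrays do not carry 1 pattern, the change was 0.90 and was not called (adjusted p = 1.00). The call was also lost without the block (adjusted p = 0.0533) and with only the groups compared in the fit (adjusted p = 0.525).

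Igkc and Iglc1 changes in these cultures rested on the same array. Igkc 1427660_x_at changed by 2.78 ± 1.03 (SE, adjusted p = 0.244), made up of -0.0085 in SuvER-4146, 9.11 in SuvER-4936 and -0.78 in SuvER-5043. Without SuvER-4936 the mean was -0.39, the opposite sign. Without SuvER-5043 it was 4.55 and called (adjusted p = 0.0315), as were the other Igkc probe sets, which made 4 calls in all. Iglc1 1424931_s_at changed by -1.37, -5.01 and 0.0062 in the 3 cultures.

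Feeder and macrophage genes moved on that array as well. Between native and ADR in SuvER-4936 the mean fibroblast level changed by 2.25, the mean macrophage level by 3.05 and the mean B cell level by 1.18. Their part in the Igkc change was not tested.

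Adding 4OHT to ADR was followed by a lower Ighm 1452535_at signal in all 3 cultures. It was 7.0 under ADR and 4.47 with 4OHT in SuvER-4146, 8.02 and 4.67 in SuvER-4936, and 5.83 and 4.64 in SuvER-5043. The change of -2.35 ± 0.33 (SE) was called (adjusted p = 0.00391 by limma). It was the only call among the 52, beside 0.749% of all probe sets. At an unadjusted p under 0.05 there were 12 of 52 (23.1%), against 13.3% of all. Without SuvER-4936 the change was -1.85 (adjusted p = 0.0381), without SuvER-4146 it was -2.27 (adjusted p = 0.031), and without SuvER-5043 it was -2.94 (adjusted p = 0.000193), with 2 calls. With only the ADR and the ADR and 4OHT arrays in the fit the call was lost (adjusted p = 0.27). In SuvER-4936 and SuvER-4146 the arrays compared did not carry the same immunoglobulin pattern. Over the 52 probe sets their r was -0.77 and -0.0086, against 0.93 in SuvER-5043. Every fit with a culture left out kept SuvER-4936, SuvER-4146 or both. The part of this mismatch in the change was not tested.

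Other constant region probe sets were not called when 4OHT was added. Igkc 1427660_x_at was lower in 3 of 3 cultures, with a mean change of -2.32 ± 1.03 (SE, adjusted p = 0.315). Ighg3 1427503_at went from 6.78 to 4.42, from 6.51 to 4.82 and from 5.27 to 4.87 (mean -1.48 ± 0.44, SE, adjusted p = 0.113). For Igha 1429381_x_at the mean was -1.49 ± 0.51 (SE, adjusted p = 0.163), which came from SuvER-4146 (8.79 to 4.09). For 1421653_a_at SuvER-4936 changed by 0.65, the other way. Igkv14-111 1451951_at was -2.20 ± 0.54 (SE, adjusted p = 0.0521). Iglc1 went the other way in SuvER-4936 (6.35 to 11.39).

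Between ADR with 4OHT and native arrays no immunoglobulin probe set was called (limma), and 1.77% of all probe sets were. At an unadjusted p under 0.05 there were 2 of 52 (3.85%), against 14.5% of all. These comparisons share arrays: the native arrays enter 2 of them and the ADR arrays 2. Ighm 1452535_at, at 5.82, 4.74 and 5.20 native, had 4.47, 4.67 and 4.64 with 4OHT, a change of -0.66 ± 0.33 (SE, adjusted p = 0.362). Ighm 1427351_s_at differed little, with 13.35, 13.54 and 13.51 native and 13.35, 13.40 and 13.42 with 4OHT (-0.07, interval -0.78 to 0.63).

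Genes that act with the immunoglobulin genes were looked at in the same fit. In WT under ADR, of 34 measured genes for receptor partners, recombination, transcription and antibody RNA processing, 4 rose and 10 fell, with a median change of -0.26, beside the 23.5% of all probe sets called in this comparison. Of 5 receptor and surrogate light chain genes 2 fell: Cd79a, which carries the receptor's signal, by 0.72 ± 0.22 (SE, adjusted p = 0.0154), and Vpreb3, which binds free immunoglobulin chains in precursor B cells, by 2.08 ± 0.33 (SE, adjusted p = 3.67e-05). Among recombination and class switch genes, Dntt, which adds bases at V region joints, fell by 1.10 and Ung, a uracil glycosylase that acts in class switching, fell by 1.18 (adjusted p = 0.0291 and 6.93e-06).

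Of 16 transcription factors 5 fell and 2 rose. Bach2, a repressor of plasma cell fate, fell by 1.5, Ikzf3 by 0.97, Pou2af1, a coactivator at immunoglobulin promoters, by 0.85, and Tcf3 by 0.77 (adjusted p = 0.00237, 0.0122, 0.00662 and 5.17e-05). Xbp1, which drives the secretory apparatus, rose by 0.58 ± 0.14 (SE, adjusted p = 0.00311), and Spi1 rose by 0.72 (adjusted p = 0.000985). Spi1 is also a macrophage gene, and macrophage genes rose in these cultures. Prdm1 (0.27 ± 0.34, SE) and Jchain, which links IgM and IgA units (0.54 ± 0.35, SE), were not called.

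Genes that act on the heavy chain messenger moved in both directions. Hnrnpll, a splicing regulator of plasma cells, rose by 1.22 ± 0.25 (SE, adjusted p = 0.000603). Ell2, which favours the secreted form of the heavy chain RNA, rose by 0.64 (adjusted p = 0.028). Cstf2, a subunit of the cleavage factor used for that form, fell by 0.74 (adjusted p = 0.000179). The arrays' Ighm probe sets were not assigned to the membrane or the secreted form here. In Suv39h1- lymphomas none of the 34 was called under ADR, nor in the response difference, nor in the Suv39h1ER cultures for ADR or for 4OHT added to ADR.

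Between the genotypes, 3 of the 34 were higher in native WT: Cd79a by 2.01 ± 0.23 (SE, adjusted p = 2.96e-05), Spi1 by 0.92 and Pou2f2, an octamer-binding factor of immunoglobulin promoters, by 0.87. Under ADR, Spi1 and Pou2f2 were higher and Ung and Cstf2 lower in WT. Between ADR with 4OHT and native, Rag2, a part of the V(D)J recombinase, fell by 1.52 ± 0.34 (SE, adjusted p = 0.0194). The immunoglobulin probe sets called in any of these comparisons were Ighm 1425247_a_at, 1452535_at and 1451949_at and Igkv19-93 1427855_at.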

How the data were processed

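The 47 arrays were deposited as log2 values that the authors made with RMA (oligo, R 3.5.0), per the submitters' processing notes. The values were used as deposited. Whether all arrays were normalized together, and scan or hybridisation batches, are not given in the sources used here. Probe set names came from the platform annotation.

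All 45101 probe sets were tested with limma 3.58.1 in R 4.3.3, with Benjamini-Hochberg adjustment over all of them and an adjusted p under 0.05 as a call. Treatment effects came from 1 fit over the 47 arrays with the 22 cultures as a block. The matched pairs are stated in the study's design. Paired arrays deviated together (r above 0.1) in 10 of 14 WT, 5 of 5 Suv39h1- and 1 of 3 Suv39h1ER pairs for ADR, and in 0 of 3 for ADR with 4OHT. Genotypes were compared over 19 arrays at a time, without a block. The fits were tested on simulated data. Descriptions and plots used Python 3.11.15, pandas 2.3.3, numpy 2.4.6 and matplotlib 3.10.9.

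The members and gene lists were chosen with earlier results of these data known. Chosen for description were all constant region probe sets in the comparisons, the called probe sets and the 10 V probe sets with the largest native SD. Those standing out by 3 log2 units and up to 12 called pathway genes were chosen too. Values of some of these, such as Ighm 1426196_at and Igkv8-30 1452463_x_at, are not given above. Igkv4-72, Xbp1, Rag2, Pou2f2, Prdm1 and Jchain were named after their values were seen. Alternatives were the fit without the block, fits of only the groups compared or of all arrays, other scalings, a filter at a mean of 4.39, another variance prior, alike lymphomas averaged, and each culture left out. The number of arrays limits the precision. For treatment, p-values measure how far the changes differ between the labelled cultures, pooled over all groups. For genotypes, they measure the spread between the labelled lymphomas.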

Additional observations from a re-analysis of the deposited data

Results flagged for a closer look

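In groups of 5 lymphomas, a lymphoma far from the other 4 was looked for in 108 sets of values, and 16 were found. Only the Suv39h1- groups have a size at which this was looked for. Chance alone sets off about 1 in 20 such groups, and the probe sets are not independent of each other. The values came from the constant region probe sets and the 10 V probe sets with the largest native SD. That SD includes the native arrays of these lymphomas, so for the V probe sets the rate of 1 in 20 is no yardstick. Lymphoma 5783 stood apart for 4 Ighm probe sets that follow each other. It had 8.14 native and 9.04 under ADR for 1425247_a_at, 6.96 and 7.82 for 1425324_x_at, 6.44 and 7.38 for 1427756_x_at, and 9.34 and 10.3 for 1427870_x_at.

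Lymphoma 4936 stood apart for Igha, with 7.49 under ADR and a change of 1.80 for 1421653_a_at and 6.73 under ADR for 1429381_x_at. The same lymphoma was apart for Igkv14-111 1451951_at (6.99 native, 7.14 ADR) and, among native arrays, for Ighm 1452535_at (6.98) and 1427758_x_at (3.65), which names Ighv14-2, Ighg3 and Ighm. Lymphoma 1032 was apart under ADR for Ighm 1425385_a_at (8.18). In no case did all WT lymphomas move one way and all Suv39h1- lymphomas the other.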

How the results depend on the processing

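The counts of immunoglobulin probe sets called were small and moved with the processing. In WT under ADR the main count of 2 was 0 with no replicate block (unpaired), 4 with arrays centred on their medians, and 1 to 3 with 1 lymphoma left out. For ADR in the Suv39h1ER cultures the count of 1 was 0 with no replicate block and 0 with only the groups compared in the fit. It was 0 without SuvER-4936 and 4 without SuvER-5043. For 4OHT added to ADR the count of 1 was 0 with only the groups compared, and 1 to 2 with a culture left out. Between native genotypes the count of 0 became 1 without WT 1467 and 3 without Suv39h1- 5783. Under ADR the count of 2 between genotypes was 0 with median centring, 0 with quantile normalization, 1 with dim probe sets left out, 0 with alike lymphomas counted once, and 0 to 2 with a lymphoma left out. The count stayed at 0 under every alternative run for ADR in Suv39h1-, for the response difference and for ADR with 4OHT against native. The cause of these moves was not tested. V probe sets stood out 10 times in native cultures at 3 log2 units, 19 times at 2 and 4 times at 4. The array most alike over the V probe sets was of the same culture for 19 arrays, for 14 by Spearman's rho and for 17 with probe sets of 1 symbol. It was so for 20 with all 52 probe sets, an alternative chosen after seeing the data. No called change of a constant region probe set turned its sign.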
